A study of Homo sapiens with 58 samples.

Results

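The 5'UTR peaks of HuR were the 1804 peaks, of 387214 in the deposited peak table, whose grouped annotation was 5'UTR after 8257 repeated lines had been dropped. They are 20 nt windows of HuR-crosslinked RNA, and they made up 0.466% of all peaks, against 37614 peaks grouped as 3'UTR, 2619 as coding sequence and 214982 as intron. They carried 1208 gene names, and 4 of them had none. Over all 58 libraries they held 60729 sequenced fragments (tags), with a median of 12 tags per peak and a range of 5 to 2767. For most of them 5'UTR was 1 of several labels. Of the 1804 peaks, 213 were annotated as 5'UTR and nothing else, and 1491 (82.6%) were also annotated as intron, retained intron or both (the transcripts of a gene can differ in where their 5'UTR lies).

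HuR, encoded by ELAVL1, is an RNA-binding protein of the ELAV family that binds U-rich and AU-rich stretches, mostly in introns and 3'UTRs. It is mainly nuclear, shuttles to the cytoplasm and is known for stabilising the mRNAs it binds there. The 5'UTR is the part of an mRNA that the small ribosomal subunit scans. It is often short and rich in G and C, and in ribosomal protein and translation factor mRNAs it begins with a pyrimidine tract (the TOP motif). Arsenite causes oxidative stress, stops most translation initiation and drives mRNAs into stress granules, of which G3BP1 is a core protein.

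HuR was immunoprecipitated with the antibody 3A2 after UV crosslinking at 400 and 200 mJ/cm2 (CLIP-seq). The cells were of the liver cancer line Huh-7.5 and were either left unstressed (mock) or stressed with sodium arsenite at 0.5 mM during 45 min. The 12 fraction libraries came from wild-type cells without an APEX reaction, as 3 nuclear and 3 cytoplasmic libraries per treatment, all of the library set JL0380. The other 46 came from the lines APEX-NLS, APEX-NES and APEX-G3BP1, which carry the peroxidase APEX in the nucleus, in the cytoplasm or on G3BP1 to biotinylate nearby proteins. Their cells were given biotin phenol and hydrogen peroxide. For each of NLS and NES, every treatment was represented by 2 inputs and 4 enriched libraries. The G3BP inputs numbered 4 (mock) and 5 (arsenite), and its enriched libraries 6 (mock) and 7 (arsenite). Enriched libraries had a streptavidin capture in addition to the HuR immunoprecipitation. The labels do not say whether a line is 1 clone or whether replicates are separate cultures, so p-values measure the spread between these libraries.

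Depth differed widely between these kinds of library. Fraction libraries held 235471 to 673322 tags in peaks, of which 1777 to 4959 lay in 5'UTR peaks; input libraries held 12 to 3353 and enriched libraries 1 to 509 tags in 5'UTR peaks. Of 32 replicate pairs within a group and library set, 5 did not differ beyond sampling noise over their 500 highest peaks, and 4 of these (the pair of set JL0388 in NLS enriched mock, NLS enriched arsenite, NES enriched arsenite and G3BP enriched arsenite) were counted as 1 sample in means with an SD. The fifth, G3BP enriched mock of the same set, was not, since it includes a library of under 2000 tags in peaks. Fraction and APEX libraries differ in cells, in the APEX reaction and in library set, so no test was made between them and values are only set side by side. Of 16 hepatocyte markers, 13 had a peak of any class, led by AFP at a median of 655 CPM (tags per 1000000 of the library total deposited) over the fraction libraries. APOA1, APOC3 and TTR had none, and APOA2, APOE and AHSG had medians of 1.26, 0.361 and 0 CPM. Of 4 markers of other cell types COL1A1 and CD68 had none, and PECAM1 had 1 peak with 5 tags over all libraries. PTPRC had 5 peaks with 55 tags, at a median of 2.01 CPM, above APOA2, APOE and AHSG.

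Peaks were placed relative to the gene start. Of the 1804 peaks, 1495 could be matched by gene symbol, chromosome and strand to a RefSeq gene start on GRCh38.p14, which is also the build named in the submitters' processing notes. The first base of 145 peaks, each in a different gene, lay between 20 nt before and 50 nt after that start, and 188 lay 51 to 300 nt after it. A further 771 peaks (51.6%) lay over 1000 nt downstream, and 699 of these were also annotated as intron. Which transcript such a peak belongs to was not tested. The median distance was 214 nt for the 256 matched peaks with no intron annotation and no overlap with a small RNA, and 1509 nt for the 1229 that were also intronic.

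**Figure D1:**
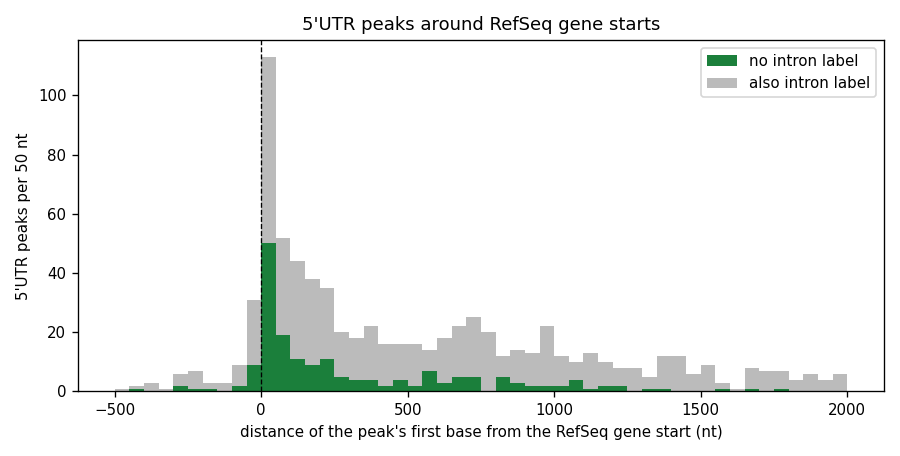
Number of 5'UTR peaks (vertical axis, per 50 nt) by distance of the peak's first base from the RefSeq gene start (horizontal axis, nt; 0 is the start, dashed line; the far ends are not drawn). Green bars are peaks with no intron annotation and grey bars, stacked on them, peaks that are also intronic; the tallest bars stand at the start, where 145 peaks lie between -20 and 50 nt.

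For 113 peaks at the start, the whole 20 nt window fell inside the RefSeq start region, which ends 50 nt after the start, and their sequence could be read. The sequences shown carry the contrast within this group: the first 5 windows hold a run of 6 or more T, and the other 7, from histone and housekeeping genes that the comparisons turn on, hold none longer than 4. Each is the RNA-sense strand written as DNA, 5′ to 3′, with runs of 3 or more T in capitals. Coordinates are those of the table on GRCh38.p14, and since it is not stated whether they count from 0 or 1, each window may be shifted by 1 nt.

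CLASP1: TTTTTTTaatccccgcacca
PPP1R9B: TTTTTTTTTaaagcgggatt
C6orf62: TTTTTTggaaagcaaggatc
MTPAP: TTTTTTagcaatggcggttc
H2BC18: tcTTTTTTcgcgcaaaaatg
H2BC5: gtgTTTgcaacagtgttcta
H2BC6: ttcctaactgcagaacagca
H2BC14: ttccaccatgcctgaaccag
H3C4: tcaTTTagcagggTTTagaa
H2AC4: TTTTcccttatcagaagtag
PSMB4: ctgctaccgtgactaagatg
RPS25: gacatcttgacgaggctgcg

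The windows of CLASP1 (chr2:121649450-121649470), PPP1R9B (chr17:50150667-50150687), C6orf62 (chr6:24719141-24719161) and MTPAP (chr10:30349265-30349285), all on the minus strand, began 7 to 10 nt before the RefSeq start and opened with 6 to 9 consecutive T. In each of these windows the T run ended before the RefSeq start, also with a shift of 1 nt, so it lay outside the RefSeq 5'UTR. Where transcription began in these cells was not tested. H2BC18 (chr1:149812320-149812340, minus strand) held its run of 6 T in a window that began at position 31 of the transcript, counting the start as 1. By contrast the windows of H2BC5 (chr6:26158134-26158154), H2BC6 (chr6:26183767-26183787) and H2BC14 (chr6:27815036-27815056), plus strand, began at positions 14, 8 and 16. They and the RPS25 window (chr11:119018313-119018333, minus strand), from position 11, held at most 3 consecutive T. The PSMB4 window (chr1:151399570-151399590, plus strand) had no 2 adjacent T. H3C4 (chr6:26197257-26197277) and H2AC4 (chr6:26033570-26033590), on the minus strand, began at positions 10 and 29.

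Across the 113 windows, on the strand of the gene, TTTTT occurred in 8 (7.08%), against 1.33% of the same positions in all 34796 RefSeq start regions. TTTNTTT, which can overlap TTTTT, occurred in 4 (3.54%, against 0.654%), and ATTTA, the core of AU-rich elements, in 1 (0.885%, against 0.805%). T made up 25.3% of the bases in the peaks and 20.01% at the same positions of all start regions, whereas G made up 27.8% and 31.2%. These are descriptions of letters in a window; most of the windows held none of the 3 motifs.

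The 20 peaks with the most tags held 24.9% of all tags in 5'UTR peaks. The highest was in EBP (chrX:48523728-48523748, plus strand), which encodes a sterol isomerase of cholesterol synthesis, and it alone held 4.56%. Besides 5'UTR, this peak was annotated as intron and as downstream of a gene. Others among the 12 highest in the fraction libraries lay in TOB1 (an antiproliferative factor that recruits deadenylase), PABPC1 (the cytoplasmic poly(A)-binding protein), IGF1R (the insulin-like growth factor receptor), SLC38A2 (a stress-inducible amino acid transporter), CLASP1 (a microtubule-binding protein), STIM2 (an endoplasmic reticulum calcium sensor), PTP4A2 (a phosphatase) and UTRN (utrophin). C6orf62, ZC3H11C and WDR74 complete the 12. The WDR74 peak also overlaps an snRNA, and ZC3H11C shares sequence with ZC3H11A and ZC3H11B, so tags could be divided between near-identical copies and these values are uncertain.

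Most genes had a single 5'UTR peak: 912 genes had 1, 153 had 2 and 143 had 3 or more. The splicing protein gene HNRNPC had the most, 18 peaks with 1392 tags, followed by TBC1D5 with 13 peaks and 219 tags and the nuclear exporter gene XPO1 with 9 peaks. C6orf62, HNRNPU, ARHGEF11, NPIPB5, CNOT2 and NPIPB13 had 8 each, with 156 to 1786 tags. NPIPB5 and NPIPB13 belong to a family of near-identical copies and their tags may be split among them. Peaks hardly touched each other, as only 5 of the 1804 started within 50 nt of the preceding one on the same strand.

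Of the tags in 5'UTR peaks, those with no intron annotation and no small RNA overlap (311 peaks) held 17.1% ± 0.388 (SD, n = 3) in the nuclear mock libraries. Their part was 24.9% ± 0.751 in cytoplasmic mock, 24.7% ± 1.79 in nuclear arsenite and 23.8% ± 1.49 in cytoplasmic arsenite libraries. The 3 nuclear mock libraries were below every other fraction library. The 12 peaks that overlap a small RNA, mostly snoRNAs inside ribosomal protein and chaperone genes, held 6.84% ± 0.745 of the 5'UTR tags in nuclear mock and 3.43% ± 0.344 in nuclear arsenite libraries. In the cytoplasm they held 0.691% ± 0.0163 and 0.792% ± 0.329.

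As a share of all tags in peaks, the 5'UTR class held 0.733% to 0.99% in the fraction libraries and 0.0719% to 1.44% in the shallower enriched ones. In nuclear mock libraries it held 0.755, 0.733 and 0.74% of the tags in peaks, with a mean of 0.743% ± 0.011 (SD, n = 3). Nuclear arsenite libraries held 0.99, 0.842 and 0.892%, mean 0.908% ± 0.0752 (SD, n = 3), all above the nuclear mock ones. Cytoplasmic mock libraries held 0.743, 0.862 and 0.89%, with a mean of 0.832% ± 0.0784 (SD, n = 3). Cytoplasmic arsenite libraries held 0.754, 0.736 and 0.768%, with a mean of 0.753% ± 0.0159 (SD, n = 3). These last 2 groups overlapped, as did nuclear and cytoplasmic mock libraries. The Wilson 95% interval of the shallowest fraction library, nuclear mock replicate 1, ran from 0.72% to 0.79%, and these intervals cover counting error only.

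None of the 4 fraction comparisons of the share could pass the threshold, since 3 against 3 libraries allow no p below 0.1 in a two-sided exact permutation test. Arsenite minus mock was 0.165 percentage points in the nuclear fraction (exact p = 0.1, adjusted 0.24 over the 15 share comparisons) and -0.0788 in the cytoplasmic fraction (exact p = 0.3). Nuclear minus cytoplasmic was -0.0891 percentage points in mock cells (exact p = 0.2) and 0.155 under arsenite (exact p = 0.1). The arsenite difference itself was 0.244 percentage points larger in the nuclear than in the cytoplasmic fraction, with an exact permutation p of 0.015 over 400 arrangements within fractions, a test added after the data had been seen. The peaks with the most tags weighed in these values. Without the 10 highest, the nuclear arsenite difference was 0.0914, nuclear minus cytoplasmic in mock cells -0.0237 (exact p = 0.7) and the difference between the fractions' arsenite values 0.148 (exact permutation p = 0.015). Without the 12 peaks that overlap a small RNA, nuclear minus cytoplasmic in mock cells was -0.134 (exact p = 0.1), and those groups no longer overlapped.

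**Figure D2:**
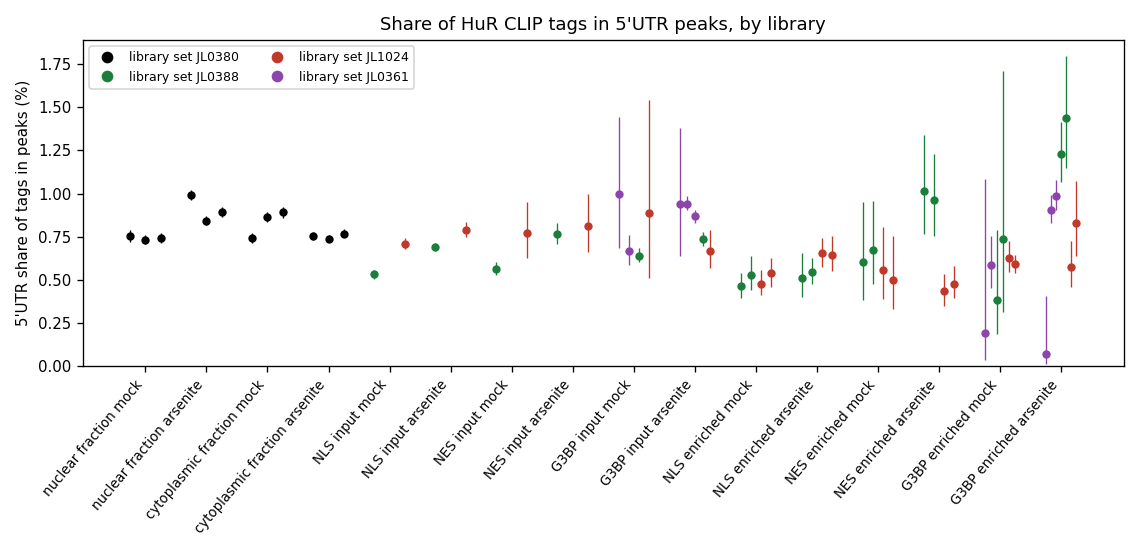
Percentage of tags in peaks that fell in 5'UTR peaks (vertical axis) for each of the 58 libraries, by group (horizontal axis); points are libraries, bars are Wilson 95% intervals and colours are library sets. Fraction libraries lie between 0.733% and 0.99%, and enriched libraries spread from 0.0719% to 1.44%, with intervals that widen where a library held few tags.

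Set against the 3'UTRs of the same genes, the 5'UTR peaks separated the 4 fraction groups. In the 980 genes that had both kinds of peak (1536 5'UTR and 6438 3'UTR peaks), the log2 ratio of 5'UTR to 3'UTR tags was -2.2, -2.24 and -2.15 in nuclear mock libraries and -3.77, -3.85 and -3.77 in cytoplasmic mock libraries. Under arsenite it was -2.53, -2.58 and -2.52 in the nuclear and -3.12, -3.2 and -3.01 in the cytoplasmic fraction. No groups overlapped. The nuclear minus cytoplasmic difference of the log2 ratio was 1.60 in mock cells and 0.57 under arsenite. Arsenite minus mock was 0.69 in the cytoplasmic and -0.35 in the nuclear fraction. Each of these 4 comparisons had an exact permutation p of 0.1, the smallest that 3 against 3 libraries can give (0.1 after Benjamini-Hochberg adjustment over the 4).

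The 3'UTR term moved more than the 5'UTR term in these ratios. The share of tags in 3'UTR peaks was 12, 12.1 and 11.1% in nuclear mock, 20.7, 18.7 and 18.2% in nuclear arsenite, 37.1, 45.3 and 44.6% in cytoplasmic mock and 24.8, 25.3 and 23.5% in cytoplasmic arsenite libraries. The 5'UTR share stayed between 0.733% and 0.99% in the same 12 libraries. Peaks also annotated as intron held 69.9% to 76.7% of the 5'UTR tags per library, and no ratio was made without them. Peaks grouped as intron held 53.6% to 54.3% of tags in peaks in nuclear mock and 28.1% to 34.8% in cytoplasmic mock libraries. The part of intronic RNA in the ratio was not tested. With coding sequence in place of the 3'UTR, in the 331 genes with both, the nuclear arsenite difference turned to 0.50 on the log2 scale (exact p = 0.1).

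**Figure D3:**
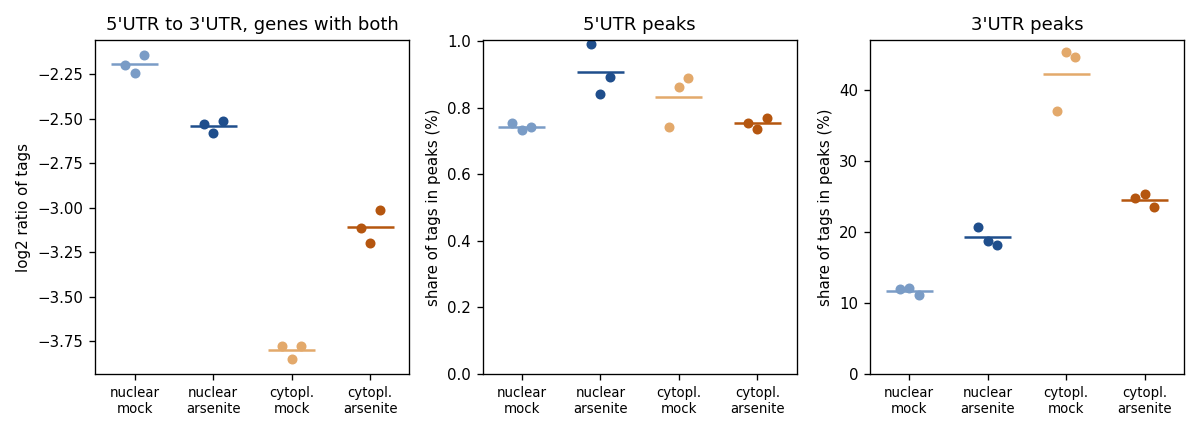
The 12 fraction libraries (points; lines are group means, n = 3) by group on the horizontal axes: left, log2 ratio of 5'UTR to 3'UTR tags in the 980 genes with both; middle, 5'UTR share of tags in peaks (%); right, 3'UTR share (%), on its own scale. The left panel shows 4 separate groups, from about -3.8 in cytoplasmic mock to about -2.2 in nuclear mock libraries, while the middle panel spans 0.733% to 0.99% and the right panel 11.1% to 45.3%.

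Single peaks were compared with limma on the log2 of CPM plus a pseudocount of 2.28 CPM, and log2 differences are on that scale, which understates changes of low peaks. A peak was tested if it had a tag in at least 3 libraries of the comparison, p-values were adjusted by Benjamini-Hochberg over all peaks tested, and a call needs an adjusted p under 0.05. In all, 58 of the 1804 peaks, in 53 genes, were called in at least 1 of the 4 fraction comparisons, and 270 passed the filter in none. That is 3.78% of the 1534 tested in any of them, against 1.8% of all 297912 peaks tested. The 4 comparisons share groups of libraries. In these bulk samples, a change in HuR binding and a change in the amount of the RNA cannot be told apart.

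In mock cells, 26 5'UTR peaks were lower in the nuclear than in the cytoplasmic fraction and 11 were higher, of 974 tested. Among all 157168 peaks tested, 2.29% were lower and 0.53% higher. The median log2 difference was 0.00 for the 5'UTR peaks and 0.15 for all peaks. Every called peak had groups that did not overlap. The 8 called peaks with no intron annotation that were lower, and the 1 that was higher, came from 174 tested; of the 9 tested peaks that overlap a small RNA, 5 were higher in the nucleus and none was lower.

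Among the peaks with the largest differences toward the cytoplasm were MATR3, PTP4A2 and C6orf62, and the highest level was in EBP. EBP stood at 209.5, 298 and 285 CPM in the cytoplasmic libraries and at 52.5, 67.3 and 60.8 in the nuclear ones (log2 difference -2.08, SE 0.18, limma adjusted p = 0.00045). The C6orf62 start peak held 57.4, 70.3 and 63.3 against 8.74, 9.09 and 7.72 (log2 difference -2.61, SE 0.23, limma adjusted p = 0.00055). In both genes every cytoplasmic library was above every nuclear one. MATR3, the gene of the nuclear matrix protein matrin 3, had 19.1, 25.5 and 33.7 in the cytoplasm and 0, 2.73 and 0.966 in the nucleus (log2 difference -3.06, SE 0.37, limma adjusted p = 0.0024). PTP4A2, with a peak at 38.3, 45.8 and 27.4 against 2.91, 4.55 and 3.86, changed by -2.68 (limma adjusted p = 0.0015).

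Housekeeping genes were in the same set. PSMB4, a proteasome subunit gene, stood at 30.8, 41.8 and 34.8 in the cytoplasm and 4.37, 10 and 6.76 in the nucleus (log2 difference -2.06, limma adjusted p = 0.0063). The ribosomal protein gene RPS25 stood at 14.9, 23.4 and 31.6 against 2.91, 5.46 and 2.9 (log2 difference -2.06). The PSMB4 and RPS25 peaks lie at the gene start, as their windows printed earlier show. GPBP1L1 and ARHGEF11, the latter a guanine nucleotide exchange factor gene, were lower in the nucleus by log2 differences of -2.11 and -2.03. Among histone genes, H3C4, H2BC6 and H2BC14 were also called lower in the nucleus.

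The 5 largest differences toward the nucleus were all in peaks over a small RNA. The peak in RPL17-C18orf32, a readthrough gene of RPL17, overlaps a snoRNA and held 52.5, 30 and 34.8 CPM in the nucleus against 1.06, 0 and 1.05 in the cytoplasm (log2 difference 3.78, SE 0.32, limma adjusted p = 0.00047). RPL23A, also over a snoRNA, held 42.3, 53.6 and 46.3 against 4.25, 4.07 and 7.38 (log2 difference 2.75), and the snoRNA peak of the chaperone gene HSPA8 27.7, 22.7 and 22.2 against 1.06, 1.02 and 1.05 (log2 difference 2.99). RPS3, over a snoRNA, had no cytoplasmic mock tag and was at least 6.24-fold higher in the nucleus. WDR74, over an snRNA, held 55.4, 46.4 and 36.7 against 10.6, 14.3 and 10.5. For these 5 peaks, tags from the small RNA and from the host 5'UTR cannot be separated. Nuclear peaks without a small RNA lay in AASS (lysine degradation; 7.29, 14.5 and 9.66 against 1.06, 2.04 and 1.05), HNRNPU (a nuclear scaffold protein; 39.3, 33.6 and 40.6 against 6.38, 14.3 and 11.6), RBPJ (the Notch transcription factor), PC (pyruvate carboxylase), GIGYF1 (a translation repressor) and TGFBR3 (a TGF-beta co-receptor). All 6 but TGFBR3 were also annotated as intron. GIGYF1 had no cytoplasmic mock tag and was at least 3.65-fold higher in the nucleus. The number of calls, 37, fell to 0 without cytoplasmic mock replicate 2 and to 5 without cytoplasmic mock replicate 1 or replicate 3, was 7 and 8 without nuclear mock replicates 2 and 3, and rose to 70 without nuclear mock replicate 1, where the prevailing direction turned, with 48 higher and 22 lower in the nucleus. Without cytoplasmic mock replicate 1 or 3 it was 3 higher and 2 lower.

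**Figure D4:**
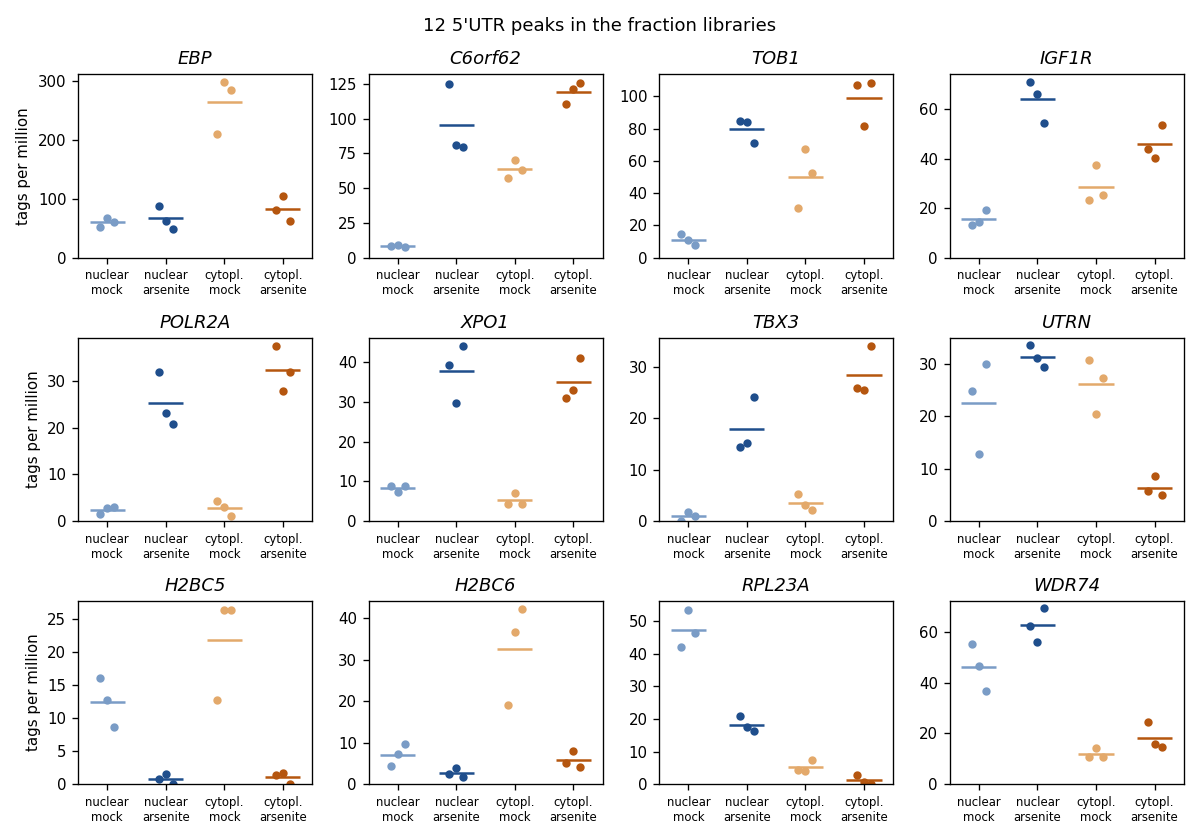
CPM (vertical axes, each panel on its own scale from 0) of 12 5'UTR peaks in the 12 fraction libraries; points are libraries and lines group means (n = 3). EBP and H2BC6 are highest in cytoplasmic mock libraries, H2BC5 has its highest mean there but overlaps nuclear mock, POLR2A, XPO1 and TBX3 are high in both arsenite groups, and RPL23A and WDR74 are higher in nuclear than in cytoplasmic libraries of either treatment.

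Under arsenite, 13 5'UTR peaks were higher in the nuclear fraction and 2 were lower, of 1235 tested, against 0.11% higher and 0.147% lower among all 236332 peaks tested. The median log2 difference was 0.06 for the 5'UTR peaks and -0.01 for all. Of the 15 calls, 8 were also called in mock cells, all in the same direction. These include the small RNA hosts RPL23A, RPL17-C18orf32, WDR74, HSPA8 and RPS3, and AASS, which stood at 24, 32 and 27.7 CPM in the nucleus against 1.44, 3.41 and 6.26 in the cytoplasm (log2 difference 2.41, SE 0.31, limma adjusted p = 0.0023). UTRN, utrophin, was called under arsenite, at 33.6, 31.2 and 29.5 in the nucleus and 5.78, 8.53 and 4.87 in the cytoplasm (log2 difference 1.98, SE 0.25, limma adjusted p = 0.0022). Its mock values, 24.8, 12.7 and 29.9 and 30.8, 20.4 and 27.4, overlapped.

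The immediate early gene JUN, which encodes a subunit of the transcription factor AP-1, had 8.81, 5.6 and 6.06 CPM in its 5'UTR in nuclear arsenite libraries and 0, 0.568 and 0 in cytoplasmic arsenite libraries (log2 difference 1.87, limma adjusted p = 0.0089). In mock libraries 2 of 6 held a tag there. The 3'UTR peaks of JUN, 3 in all, held 68.1, 58.4 and 77.1 in nuclear and 70, 73.3 and 66.8 in cytoplasmic arsenite libraries, so its 3'UTR tags were of like level in both fractions while its 5'UTR tags were not. USP9X (a deubiquitinase), EXTL2 and a peak of TGFBR3 were higher in the nucleus by log2 differences of 1.72, 1.77 and 1.68. The 2 peaks lower in the nucleus lay in PTP4A2 (10.8, 9.1 and 5.56 cytoplasmic, 0, 0 and 2.6 nuclear) and in INS-IGF2, a readthrough gene that overlaps IGF2 (8.66, 6.82 and 7.65 and 0.801, 0.800 and 0.866). Leaving out any single library gave 0 or 1 calls: 1 without cytoplasmic arsenite replicate 1 or 3, and 0 without cytoplasmic arsenite replicate 2 or any nuclear arsenite replicate.

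Arsenite against mock in the cytoplasmic fraction gave 4 higher and 14 lower 5'UTR peaks of 1091 tested; among all 193897 peaks tested, 0.24% were higher and 0.52% lower. The median log2 difference was 0.03, against 0.08 for all peaks. More peaks fell than rose, a balance that turned under 4 of the alternative settings given after the genes. Histone genes made up 7 of the 14 that fell. Those that rose lay in POLR2A, TBX3, XPO1 and SEPTIN2.

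POLR2A, which encodes the largest subunit of RNA polymerase II, rose from 4.25, 3.06 and 1.05 to 37.5, 27.9 and 32 CPM in the cytoplasm (log2 difference 2.82, SE 0.31, limma adjusted p = 0.0049). In the nucleus it rose from 1.46, 2.73 and 2.9 to 32, 23.2 and 20.8 (log2 difference 2.57, SE 0.29, limma adjusted p = 0.0035). Its peak (chr17:7484543-7484563, plus strand) begins 178 nt after the RefSeq start, and the gene had no 3'UTR or coding sequence peak. TBX3, a developmental transcription factor gene, went from 5.32, 3.06 and 2.11 to 26, 25.6 and 34.1 in the cytoplasm (log2 difference 2.44, limma adjusted p = 0.0068) and from 0, 1.82 and 0.966 to 14.4, 15.2 and 24.3 in the nucleus (log2 difference 2.66). XPO1, the gene of the exportin CRM1, went from 4.25, 7.13 and 4.22 to 31, 33 and 41 and from 8.74, 7.27 and 8.69 to 39.2, 29.6 and 44.2. These 3 peaks and H2BC5 were the 4 called in both fractions. The 3'UTR tags of XPO1, over 22 peaks, were 57.4, 46.9 and 60.1 in cytoplasmic mock and 40.4, 51.7 and 44.5 in cytoplasmic arsenite libraries, which overlap. In the nucleus they went from 21.9, 14.5 and 22.2 to 38.4, 40 and 45, higher in every arsenite library, as the 5'UTR peak was. SEPTIN2, a cytoskeletal GTPase gene, rose from 12.8, 9.17 and 4.22 to 48.4, 44.3 and 49.4 in the cytoplasm (log2 difference 2.26), while its 3'UTR peaks held 26.6, 30.6 and 31.6 before and 26, 17.6 and 18.1 after.

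Outside the histone genes, the peaks that fell in the cytoplasm included EBP, from 209.5, 298 and 285 to 81.6, 104 and 62.6 (log2 difference -1.66, SE 0.21, limma adjusted p = 0.0096), and PSMB4, from 30.8, 41.8 and 34.8 to 5.78, 9.66 and 6.26 (log2 difference -2.01, SE 0.26, limma adjusted p = 0.01). MANBA, a lysosomal mannosidase gene, went from 11.7, 11.2 and 9.49 to 0.722, 1.14 and 0.696. FLRT2 and UTRN fell by 1.83 and 1.72 on the log2 scale, and PPP2R5C, a phosphatase subunit gene, by 1.36. EBP had only 1 3'UTR peak, with at most 5.68 CPM in any fraction library, so nearly all its tags in UTR peaks were in the 5'UTR peak. That peak was also annotated as intron and as downstream of a gene, and tags of these labels cannot be told apart there. The number of calls, 18, was 4 without cytoplasmic mock replicate 1 and 0 without cytoplasmic mock replicate 2 or 3. Without cytoplasmic arsenite replicates 1, 2 and 3 the prevailing direction turned, with 50 higher and 16 lower, 51 and 14, and 35 and 18. The counts were 19 higher and 17 lower once the pseudocount was made 4 times smaller. The edgeR quasi-likelihood test on recovered tags called 7 higher and 22 lower, where 0.437% of all peaks tested were higher and 1.01% lower by that test.

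Histone genes were grouped after their values had been seen, so their counts are a description only. They had 28 5'UTR peaks in 27 genes, 23 of them between 20 nt before and 50 nt after the RefSeq start. Their summed level was 114, 183 and 214 CPM in cytoplasmic mock and 29.6, 35.8 and 20.9 in cytoplasmic arsenite libraries. In the nucleus it was 78.7, 84.6 and 96.6 before and 23.2, 20.8 and 18.2 after. In both fractions every mock library was above every arsenite library. Of 22 tested in the cytoplasm 7 fell and none rose, and of 16 tested in the nucleus 1 fell and none rose. Among all peaks tested 0.52% fell and 0.24% rose in the cytoplasm, and 0.034% fell and 0.152% rose in the nucleus. The median log2 difference was -0.99 in each, beside 0.08 and 0.01 for all peaks tested.

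In the APEX inputs, which held 0 to 71 of these tags each, the mean sum was not lower after arsenite within any line and library set. In the inputs of set JL0388 the sum was 23.5 CPM in mock and 30.9 in arsenite cells of the NLS line, 33.6 and 39.6 in the NES line and 20.9 and 21.7 in the G3BP line. G3BP inputs of set JL0361 held 0 and 33.2 in mock and 0, 60.4 and 56.3 under arsenite. Inputs of set JL1024 ran from 0 to 3.05 in mock and from 0 to 8.16 under arsenite. The G3BP enriched libraries held 0 to 7.41 in mock and 0 to 56.4 under arsenite, in 0 to 22 tags a library. NLS and NES enriched libraries held at most 3 of these tags each. The contrast between the fractions and the APEX libraries was not tested.

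H2BC5 fell from 12.8, 26.5 and 26.4 to 1.44, 1.71 and 0 in the cytoplasm (log2 difference -2.84, SE 0.35, limma adjusted p = 0.0084) and from 16, 12.7 and 8.69 to 0.801, 1.6 and 0 in the nucleus (log2 difference -2.26, SE 0.33, limma adjusted p = 0.018). H2BC6 fell from 19.1, 36.7 and 42.2 to 5.05, 7.96 and 4.17, H2BC14 from 20.2, 23.4 and 35.9 to 5.78, 2.27 and 2.78 and H3C4 from 9.57, 24.4 and 17.9 to 0.722, 2.84 and 2.78, all in the cytoplasm. All of these encode core histones. H2AC4, H2AC6 and H2AC20 fell as well, by 2.01, 1.99 and 1.61 on the log2 scale. The 3'UTR peaks of histone genes, by comparison, held 176, 191 and 249 in cytoplasmic mock and 99.6, 117 and 105 in cytoplasmic arsenite libraries, and in the nucleus 97.6, 69.1 and 61.8 and 68.1, 57.6 and 50.2. In the nucleus these 3'UTR values overlapped between treatments, and the 5'UTR values did not. Core histone genes are near-identical copies of each other in places, so tags could be divided among them.

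**Figure D5:**
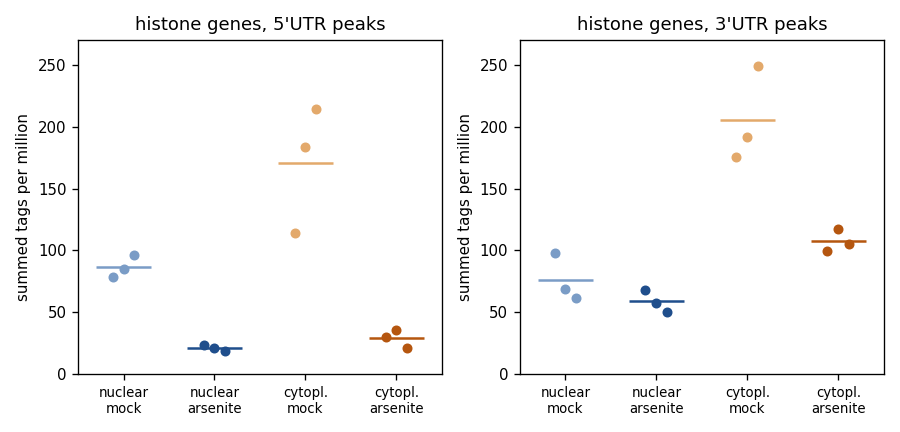
Summed CPM (vertical axes, both from 0 to 270) over the 28 5'UTR peaks (left) and the 3'UTR peaks (right) of histone genes in the 12 fraction libraries, by group; points are libraries and lines group means (n = 3). The 6 arsenite libraries lie below all 6 mock libraries on the left, and on the right the 2 nuclear groups overlap.

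The 145 peaks near the RefSeq start, to which most of the histone peaks belong, summed to 522 ± 99 CPM (SD, n = 3) in cytoplasmic mock libraries and 335 ± 16.8 in cytoplasmic arsenite libraries. In the nucleus they summed to 271 ± 4.89 and 357 ± 41.3. Histone 5'UTR peaks of all positions summed to a mean of 170 CPM in cytoplasmic mock and 28.8 in cytoplasmic arsenite libraries. They gave 7 of the calls that fell in the cytoplasm. A sum of the start peaks without histone genes was not made, so whether the other start peaks fell is not shown. The 188 peaks 51 to 300 nt after the start summed to 299 ± 55 and 306 ± 2.44 in the cytoplasm. From there to 1000 nt the cytoplasmic sums were 444 ± 36.3 and 403 ± 35.9, and beyond 1219 ± 122 and 1105 ± 28.7. The libraries of the treatments overlapped in each of these downstream bins. In the nucleus the bins further down were also higher after arsenite: 250.1 ± 17.7 and 361 ± 19.7 for 51 to 300 nt, 371 ± 16.5 and 482 ± 35.5 from there to 1000 nt, and 993 ± 27.7 and 1158 ± 59.1 beyond. Of the start peaks tested, 9 of 102 fell in the cytoplasm and none rose, 2 of 96 rose in the nucleus and 1 fell. Of the peaks over 1000 nt downstream, 2 of 426 fell in the cytoplasm and 1 rose, and 4 of 465 rose in the nucleus and 1 fell. Among all peaks tested, 0.52% fell and 0.24% rose in the cytoplasm, and 0.152% rose and 0.034% fell in the nucleus.

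In the nuclear fraction arsenite raised 12 5'UTR peaks and lowered 3, of 1128 tested, where 0.152% of all 200232 peaks tested were higher and 0.034% lower. The median log2 difference was 0.04, against 0.01 for all peaks. Of the 12 that rose, 7 had no intron annotation, from 179 such peaks tested, and 5 came from 941 tested peaks that were also intronic.

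C6orf62 rose from 8.74, 9.09 and 7.72 to 125, 80.8 and 79.7 CPM (log2 difference 3.14, SE 0.23, limma adjusted p = 0.00034). This is the peak whose window, printed earlier, opens with a T run just before the RefSeq start. TOB1 rose from 14.6, 10.9 and 7.72 to 84.9, 84 and 71 (log2 difference 2.65, SE 0.23, limma adjusted p = 0.0008) and IGF1R from 13.1, 14.5 and 19.3 to 71.3, 66.4 and 54.6 (log2 difference 1.89, SE 0.22, limma adjusted p = 0.0038). In the cytoplasm the same 3 peaks were not called: log2 differences were 0.88 (adjusted p = 0.052, limma), 1.00 (adjusted p = 0.088, limma) and 0.65 (adjusted p = 0.15, limma). Their 3'UTR tags were higher after arsenite in the nucleus as well, and lower in the cytoplasm, with groups that did not overlap. Those of C6orf62, over 7 peaks, went from 18.9, 20.9 and 12.6 to 51.2, 62.4 and 57.2 in the nucleus and from 116, 159 and 160.3 to 77.2, 94.4 and 86.9 in the cytoplasm. Those of IGF1R, over 12 peaks, went from 31.9, 63.1 and 43.2 to 15.9, 15.3 and 15.3 in the cytoplasm and from 10.2, 13.6 and 19.3 to 21.6, 21.6 and 24.3 in the nucleus. Those of TOB1 went from 4.37, 5.46 and 9.66 to 29.6, 25.6 and 22.5 in the nucleus and from 28.7, 49.9 and 55.9 to 10.8, 24.4 and 14.6 in the cytoplasm, where the 5'UTR peak went from 30.8, 67.2 and 52.7 to 107, 81.3 and 109.

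STK11, the gene of the kinase LKB1, rose from 8.74, 7.27 and 5.79 to 34.4, 38.4 and 29.5 in the nucleus, ERBIN, a scaffold protein gene, from 1.46, 0.909 and 0.966 to 16.8, 10.4 and 14.7, and PPP1R9B, the gene of the scaffold protein spinophilin, from 0, 3.64 and 0 to 10.4, 18.4 and 13.9. The PPP1R9B window is the one with 9 consecutive T. ZC3H11B rose from 1.46, 7.27 and 1.93 to 41.6, 20.8 and 29.5, with the limit on near-identical copies given earlier. JUN and an ARHGEF11 peak also rose. The 3 that fell were H2BC5 and the snoRNA peaks of HSPA8, from 27.7, 22.7 and 22.2 to 8.81, 4.8 and 4.33, and RPL23A, from 42.3, 53.6 and 46.3 to 20.8, 17.6 and 16.5. CLASP1, whose start window also opens with a T run, stood at 24.8, 30 and 21.2 before and 46.4, 40 and 33.8 after and was not called (log2 difference 0.62, limma adjusted p = 0.21). The other windows printed with a T run were not higher after arsenite: the nuclear means were 2.99 and 2.71 CPM for MTPAP, and for H2BC18 1.74 and 0.822. The number of calls, 15, fell to 4 and 5 without nuclear mock replicates 2 and 3, to 0 without nuclear mock replicate 1 or nuclear arsenite replicate 1 or 2, and rose to 58 without nuclear arsenite replicate 3.

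The interaction of fraction and arsenite asks whether the arsenite difference is larger in the nuclear than in the cytoplasmic fraction. It was higher for 11 5'UTR peaks, in 10 genes, and lower for none of 1661 tested. Among all 334689 peaks tested, 0.318% were higher and 0.0344% lower, so calls in this direction prevailed among peaks of all classes. EBP had a log2 interaction of 1.77 (SE 0.19, limma adjusted p = 4.4e-13): it fell in the cytoplasm and stood at 52.5, 67.3 and 60.8 and 88.1, 62.4 and 49.4 in the nucleus. C6orf62 had 2.26 (SE 0.28, limma adjusted p = 3.5e-10). Of the alternative settings, leaving out single libraries among them, EBP was called in 17 of 17 and C6orf62 in 17 of 17. In ZC3H11C (30.8, 33.6 and 45.3 to 19.5, 21 and 13.2 in the cytoplasm, 11.7, 9.09 and 8.69 to 44, 20 and 28.6 in the nucleus) it was 2.35. UTRN, ZC3H11B, MATR3, USP9X, JUN and TOB1 had interactions between 1.65 and 2.29. Most of these calls were less stable: ZC3H11C was called in 14 of 17 settings, UTRN in 11 of 17, TOB1 in 11 of 17 and USP9X in 7 of 17. ZC3H11B, MATR3 and JUN were each called in 6 of 17, with an adjusted p for JUN of 0.0061 to 0.73 over these limma and edgeR fits. Without single libraries the number of calls was 2 to 10: 2 without nuclear arsenite replicate 1, 3 without replicate 3 and 5 without replicate 2 of that group; 4, 5 and 6 without cytoplasmic arsenite replicates 2, 3 and 1; 5 and 6 without cytoplasmic mock replicates 2 and 3; and 6 and 7 without nuclear mock replicates 3 and 1. Scaling to the tags in peaks gave 7 higher and 1 lower.

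Known groups of 5'UTR-regulated mRNAs were covered unevenly. Of 79 ribosomal protein genes, 68 had a peak of any class and 24 a 5'UTR peak, 29 peaks in all. In mock cells 2 of 15 tested were higher in the nucleus (the snoRNA hosts RPL23A and RPS3) and 2 lower, RPS25 among them, where 0.53% of all peaks tested were higher and 2.29% lower, with a median log2 difference of -0.21 beside 0.15 for all peaks tested. Under arsenite 2 of 20 were higher in the nucleus and none lower, beside 0.11% and 0.147% of all peaks. Arsenite against mock called none of 15 tested in the cytoplasm, where 0.24% of all peaks tested were higher and 0.52% lower. In the nucleus 1 of 15, RPL23A, was lower and none higher, beside 0.034% and 0.152% of all peaks tested. The highest without a small RNA was RPL23 at 23.8 ± 16.9 CPM (SD, n = 3) in cytoplasmic mock and 25.9 ± 3.69 in cytoplasmic arsenite libraries. Of 27 genes of translation factors and other TOP mRNAs, 13 had 21 5'UTR peaks, and none of 12 to 17 tested was called in any of the 4 comparisons. Among all peaks tested 0.034% to 2.29% were called per direction there, so an absence of calls among so few says little. PABPC1 led these TOP genes, at 35.6 ± 5.93 in nuclear mock, 60.7 ± 13.7 in nuclear arsenite, 43.4 ± 8.08 in cytoplasmic mock and 30.7 ± 8.8 in cytoplasmic arsenite libraries.

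Splicing factor genes (28 HNRNP and SRSF genes) had 41 5'UTR peaks in 8 genes, all tested in arsenite cells. HNRNPU was the 1 called, higher in the nucleus in both treatments, of 35 tested in mock and 41 in arsenite cells, beside 0.53% and 0.11% of all peaks higher there. Its 3'UTR, with 17 peaks, went the other way in mock cells, 162, 164 and 137 in the nucleus against 862, 1051 and 1252 in the cytoplasm. Of the 14 immediate early genes, JUN and FOSB had a 5'UTR peak. FOSB stood at 1.11 ± 0.964 in nuclear arsenite libraries. Among 12 RNA polymerase II subunit genes, POLR2A and POLR2B had one, and of the 15 heat shock and chaperone genes 4 did. DNAJB1 was the highest of these without a small RNA, at 4.09 ± 2.07 in nuclear arsenite libraries.

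Lists of stress and iron genes had few 5'UTR peaks. Of 9 integrated stress response genes, whose 5'UTRs carry upstream reading frames, IFRD1 and ATF4 had 1 peak each, with 26 tags over all libraries. Among 6 genes with a 5'UTR iron-responsive element, EPAS1 and FTH1 had 3 peaks with 61 tags, EPAS1 at 5.44 ± 2.3 CPM in cytoplasmic arsenite libraries. Of the 10 NRF2 target genes, GCLC and SQSTM1 had 3 peaks with 46 tags, and of 11 stress granule protein genes G3BP2, ATXN2L and FXR1 had 3 with 27. None of these was called. With 1 to 3 peaks of each list tested per comparison, and 0.034% to 2.29% of all peaks called per direction, this is no result about these genes. The 4 ELAVL genes, HuR's own among them, and 4 markers of other cell types had no 5'UTR peak. Of 16 hepatocyte markers 5 had one; AFP stood at 8.66 ± 4.05 in cytoplasmic mock and 1.65 ± 1.08 in cytoplasmic arsenite libraries and was not called.

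In the input libraries of the APEX lines, 1635 of the 1804 peaks had a tag, with 16289 tags in all, but 103 peaks had one in 9 or more of the 17 libraries. Arsenite against mock called 0 of 147 tested 5'UTR peaks in limma (percentage called among all 17091 tested, 0% in either direction), with 21 at an unadjusted p under 0.05. EdgeR's quasi-likelihood test on recovered tags called 15 of the 147, all higher, where 2.3% of all peaks tested were higher and 0.456% lower by that test. EBP had the lowest adjusted p of these (edgeR adjusted p = 0.00048, limma 0.60): its median was 20.7 CPM over 8 mock inputs (range 0 to 61.7) and 69.3 over 9 arsenite inputs (range 0 to 169.5). Its direction was opposite to that in the cytoplasmic fraction, where EBP fell; this contrast between the experiments was not tested. C6orf62, GPBP1L1, SLC38A2 and HNRNPC were among the 15, and so was PSMB4, which also fell in the cytoplasmic fraction.

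The 5'UTR share of tags in peaks averaged 0.801% ± 0.0984 (SD, n = 9) in arsenite and 0.72% ± 0.159 (SD, n = 8) in mock inputs. Within line and library set the difference was 0.0679 percentage points (exact permutation p = 0.23, adjusted 0.38; higher in 6 of 7 strata). In the NLS and NES lines the small RNA peaks differed between library sets: they held 22.2% to 54.1% of the 5'UTR tags in NLS and NES inputs of set JL1024 but 2.15% to 2.81% in those of JL0388. In the G3BP line they held 0.694% and 33.3% in the 2 inputs of JL1024, which had 144 and 12 tags in 5'UTR peaks, and 0% to 5.38% in those of the other sets. Without the 12 small RNA peaks, a setting added after the data had been seen, the difference was 0.133 percentage points (exact permutation p = 0.014). It was 0.106 (exact permutation p = 0.047) without libraries of fewer than 2000 tags in peaks. As a percentage of each library's deposited total it was 0.0316 (exact permutation p = 0.0031).

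In the streptavidin-enriched libraries 897 peaks had a tag, with 3722 tags in all, so single peaks were not tested there. The 5'UTR share averaged 0.503% ± 0.0305 (SD, n = 3) in NLS mock, 0.609% ± 0.0699 (SD, n = 3) in NLS arsenite, 0.585% ± 0.0741 (SD, n = 4) in NES mock and 0.633% ± 0.308 (SD, n = 3) in NES arsenite libraries. G3BP libraries averaged 0.519% ± 0.197 (SD, n = 6) in mock and 0.784% ± 0.427 (SD, n = 6) under arsenite. The G3BP arsenite libraries ran from 0.0719%, in a library with 1 tag in 5'UTR peaks, to 1.44%, with a median of 0.907%. The groups overlapped in every comparison.

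None of the 15 share comparisons passed the threshold after adjustment. The smallest raw p was that of NLS enriched against input, -0.135 percentage points, lower in all 4 strata (exact permutation p = 0.012, adjusted 0.19). G3BP and NES were compared only in the sets that hold both, JL0388 and JL1024, with 4 libraries each, so G3BP libraries of set JL0361 were left out. G3BP minus NES enriched was 0.296 under arsenite (means 1.02% and 0.722%, exact permutation p = 0.056, the smallest its 36 arrangements allow). In mock cells it was -0.00031 (means 0.584% and 0.585%, exact permutation p = 1). Arsenite minus mock was 0.371 in G3BP libraries (exact permutation p = 0.078, higher in 3 of 3 library sets), 0.0876 in NLS libraries (exact permutation p = 0.11) and 0.137 in NES libraries (exact permutation p = 0.33). NLS minus NES was -0.0832 in mock and -0.133 in arsenite cells, and enriched minus input -0.0746 for NES and -0.126 for G3BP, with exact permutation p-values of 0.11 to 0.42. These tests count the pairs of set JL0388 that were not told apart as separate libraries. With each such pair counted once, a setting added after the data had been seen, G3BP minus NES under arsenite was 0.279 (exact permutation p = 0.17). Arsenite minus mock in G3BP libraries was then 0.324 (exact permutation p = 0.14), and NLS enriched minus input -0.141 (exact permutation p = 0.028, unadjusted). Without the 10 highest peaks, NLS enriched minus input was -0.0753, G3BP minus NES under arsenite 0.146 and arsenite minus mock in G3BP libraries 0.182. The last was 0.201 without libraries of under 2000 tags in peaks, and NLS enriched minus input was -0.0819 without the small RNA peaks.

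The peaks with the most tags in the APEX libraries were in part those of the fractions. EBP had 226 tags in 6 of 7 G3BP arsenite libraries (median 144 CPM) and 58 in 4 of 6 G3BP mock libraries (median 37.8). Its median was 3.51 CPM in NLS mock (5 tags), 15.6 in NLS arsenite (16 tags), 23.1 in NES mock (10 tags) and 32.8 in NES arsenite libraries (8 tags). WDR74, over its snRNA, had 51 and 75 tags in NLS mock and arsenite libraries, against 4 and 9 in NES. C6orf62 had 32 tags in 6 of 7 G3BP arsenite and 11 in 2 of 6 G3BP mock libraries. These are sums over libraries of very different depth and were not compared.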

How the data were processed

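The deposited table gives, for each 20 nt peak and library, a signal that, by the whole-read steps of its values, the authors had divided by 1 total per library. Per the labels the libraries are HuR CLIP-seq, and the submitters' processing notes name Bowtie2, SAMtools, bedtools, HOMER and GRCh38.p14 without versions or roles. The table lists the same peaks for every library. Whole tags were recovered from these deposited signal values, with 100% of values whole at a tolerance of 0.05, and are printed as CPM, tags per 1000000 of that total. A share is a library's 5'UTR tags over its tags in all peaks.

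Of 395471 lines, 8257 repeats were dropped. Peaks were tested with limma 3.58.1 (trend, R 4.3.3) on log2 values with a pseudocount of 2.28 CPM, with Benjamini-Hochberg adjustment at 0.05 over all peaks of every class that had a tag in as many libraries as the smaller group. EdgeR 4.0.16 on recovered tags was an alternative. Shares and ratios were tested by two-sided exact permutation of libraries, within line and library set for APEX libraries. The fits were tested on simulated data. Correlations of same-numbered deviations between fraction groups ran from -0.0168 to 0.0125. With few tags in most peaks, such values cannot decide whether the numbers pair the libraries. No block was used in the main fits, since the labels name no shared source.

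Named peaks are the 12 with the highest mean level in the fraction libraries, at most 1 per gene, up to 10 called in each direction per comparison by size of the log2 difference, the called or highest genes of each list, and the genes with the most peaks. The other peaks and genes named, including the histone genes and the remaining calls, were chosen after their values were seen. Members, gene lists and tests were chosen with earlier results of these data known. Gene starts and sequences are from RefSeq tables (GRCh38.p14), matched by symbol for 1495 peaks. No genome was used here, and motif and sequence values rest on the 113 windows those tables hold. Values of some genes are not reported here, though counts include them.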

Additional observations from a re-analysis of the deposited data

Results flagged for a closer look

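The arsenite difference was larger in the nuclear than in the cytoplasmic fraction for the genes named here, by the interaction term of the limma fit over all 12 fraction libraries. The log2 interaction was 2.35 for ZC3H11C, 2.29 for ZC3H11B, 2.28 for MATR3, 2.26 for C6orf62, 2.23 for UTRN, 2.13 for USP9X, 1.89 for JUN, 1.77 for EBP and 1.65 for TOB1. In EBP and UTRN the cytoplasmic peak fell, and in C6orf62, JUN, TOB1 and ZC3H11B the nuclear peak rose. ZC3H11C, MATR3 and USP9X were called in neither fraction alone. Of 17 alternative settings the interaction was called in 17 for EBP and C6orf62, 14 for ZC3H11C, 11 for UTRN and TOB1, 7 for USP9X and 6 for ZC3H11B, MATR3 and JUN. ZC3H11B and ZC3H11C are near-identical copies and may share tags.

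The 5'UTR share of tags in peaks showed the same contrast, with an arsenite difference 0.244 percentage points larger in the nuclear fraction (exact permutation p = 0.015, where 0.005 is the smallest possible). It was 0.148 without the 10 peaks with the most tags (exact permutation p = 0.015) and 0.203 to 0.288 without single libraries (exact permutation p of 0.005 to 0.03). Both fractions come from 1 library set, and the 3'UTR share of the same libraries moved as well. The part of these in the difference was not tested.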

How the results depend on the processing

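Limits come first from replicate number: 3 against 3 libraries allow no exact p below 0.1, and the peak calls moved with single libraries. Leaving out 1 library in turn gave 0 to 70 calls for nuclear against cytoplasmic in mock cells, 0 to 1 under arsenite, 0 to 66 for arsenite in the cytoplasm, 0 to 58 in the nucleus and 2 to 10 for the interaction. With a pseudocount 4 times smaller the calls were 8 for nuclear against cytoplasmic under arsenite, 36 for arsenite in the cytoplasm and 7 in the nucleus. EdgeR gave 26, 29 and 25 for these and 15 for arsenite in the inputs, and no filter on low values gave 32 for arsenite in the nucleus. With the replicate number as a block the calls were 33, 8, 26, 18 and 13 in the order of the leave-out ranges. The pairwise share and ratio comparisons of fraction groups kept their values, which equal pairs cannot change (exact sign-flip p of 0.25 to 0.5). Whether the numbers pair the samples could not be decided. Of 819 alternative values over 69 named peak results, 487 stayed past the threshold, 332 did not and 0 changed direction.

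For the 5'UTR share, the value per deposited total was 0.0316 for arsenite in inputs (exact p = 0.0031) and 0.0685 for arsenite in G3BP enriched (exact permutation p = 0.039). For enriched against input it was -0.0514 in NES (exact permutation p = 0.012) and -0.0439 in G3BP (exact permutation p = 0.043). These p-values are unadjusted. The sign turned for NLS against NES in mock (0.0147) and arsenite cells (0.0043). The input difference was 0.133 without small RNA peaks, 0.106 without libraries of fewer than 2000 tags and 0.0326 to 0.106 without single libraries. G3BP against NES in mock cells turned to 0.0278 per total, 0.0477 without the 10 highest peaks, 0.0827 without small RNA peaks and 0.0797 without small libraries, and ran from -0.0551 to 0.0865 without single libraries. Arsenite in G3BP enriched ran from 0.283 to 0.475 and enriched against input in NES from -0.173 to 0.0188 without single libraries; in G3BP the latter turned to 0.0914 without small libraries. The nuclear arsenite ratio turned to 0.50 against coding sequence. The causes were not tested. Depth in enriched libraries, with 1 to 509 tags in 5'UTR peaks, limits every value there.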
